A study of Mus musculus with 12 samples.

Results

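Klf2, Klf4 and Klf5 are the Krüppel-like transcription factors of naive mouse embryonic stem (ES) cells. On the arrays used here their probes were found by gene name and description, which gave 3 probes, 1 for each gene, of the 20280 gene probes on the array. These were A_65_P04395 for Klf2, A_65_P09132 for Klf4 and A_65_P19561 for Klf5.

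Krüppel-like factors carry zinc fingers at the C-terminus that bind GC-rich and CACCC-type DNA elements, shared with the Sp proteins. In mouse ES cells LIF acts through its receptor and gp130 on JAK kinases and STAT3, and Klf4 is a direct STAT3 target. Klf5 also responds to LIF, while Klf2 is held up mainly through Oct3/4 and falls when FGF and ERK signalling is active. The 3 factors overlap in function, and loss of all 3 together is known to impair self-renewal of ES cells. KLF4 is also one of the factors used to reprogram somatic cells.

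The study compared 4 ES cell lines that differ at Rex1 (Zfp42), a zinc finger gene expressed in undifferentiated ES cells, with 3 arrays for each line. EB5 was the wild-type line. RKPG9 (Rex-1+/-) carried 1 allele in which the start of the coding region was replaced by a cassette joining a puromycin resistance gene to EGFP, and HP3 (rex-1-/-) and HP4 (Rex-1-/-) were homozygous. The study made such lines from heterozygous cells either by high-dose puromycin or with another vector selected by hygromycin, and which route gave HP3 and HP4 is not given in the sources used here. The wild-type and heterozygous genotypes were each represented by a single line. Cells were grown without feeders in serum and LIF. On every array the ES cell RNA was labelled with Cy3 and a common reference, pooled from 11 cultured mouse cell lines, with Cy5, and the dyes were never swapped, so levels are given as log2 of line over reference and lines are compared with each other. Whether replicate arrays stand for separate cultures is not given in the labels, and p-values therefore measure only the array-to-array spread, which could be technical.

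EB5 arrays were read in a session of the scanner software separate from that of the other 3 lines and with another background setting, and for any change from EB5 line and session cannot be told apart. The reference channel, which held the same RNA on every array, gives the size of this. When the Cy5 channel was fitted alone, 6422, 8178 and 5683 probes differed between EB5 and HP3, HP4 and RKPG9 respectively at an adjusted p under 0.05 in limma. The same fit found 0 probes between HP3 and RKPG9, 17 between HP4 and RKPG9 and 0 between HP4 and HP3 (2561, 3553 and 1560 at an unadjusted p under 0.05). Comparisons among RKPG9, HP3 and HP4 are therefore given first. The HP4 arrays were dimmer in Cy3 than the others of that session, with median spot intensities of 481.4 to 487.4 against 520.5 to 546.1 in HP3 and RKPG9, with nothing subtracted. The brightest decile of spots began at 797 to 891 on HP4 arrays, against 1141 to 1407 in HP3 and RKPG9. Between 85.3% and 94.5% of probes were well above background in Cy3. ES cell identity was seen in the defining markers on the array, with Pou5f1 at mean log2 ratios of 4.12 to 4.43, Nanog at 2.07 to 2.45 and Zfp42 itself at 5.44 to 6.03 in the 4 lines. Fgf4 was well above background on all 12 arrays, but its ratio stayed between -0.06 and 0.02. Zfp42 was lowest in HP4, and a second Zfp42 probe was also lower in HP4 than in HP3 (-0.48, adjusted p = 0.0012 in limma). The study detected a longer transcript from the mutant allele with a Rex1 cDNA probe. The Zfp42 probes of the array could not be placed against the replaced stretch, so their levels do not check the labelled genotypes.

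Promoters are shown because these factors act at GC-rich elements. The promoters of Klf2 and Klf4 are taken from RefSeq on GRCm38.p6, and the Klf5 promoter was not used here. The 2 genes that changed together between the knockout lines were Klf4 and Klf5, so the promoters shown are not those of that pair. Each line gives the 250 bases before the annotated start, read 5′ to 3′ on the gene's strand. Capitals mark GC boxes, spelled GGGCGG or CCGCCC, and 2 of those in Klf4 overlap by a base. The Klf2 stretch is chr8:72318812-72319061 on the plus strand and the Klf4 stretch is chr4:55532476-55532725 on the minus strand.
Klf2: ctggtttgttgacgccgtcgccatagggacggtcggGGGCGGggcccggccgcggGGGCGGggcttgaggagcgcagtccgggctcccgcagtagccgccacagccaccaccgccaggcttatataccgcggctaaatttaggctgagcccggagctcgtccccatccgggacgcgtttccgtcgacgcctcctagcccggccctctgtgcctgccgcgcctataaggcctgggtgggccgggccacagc
Klf4: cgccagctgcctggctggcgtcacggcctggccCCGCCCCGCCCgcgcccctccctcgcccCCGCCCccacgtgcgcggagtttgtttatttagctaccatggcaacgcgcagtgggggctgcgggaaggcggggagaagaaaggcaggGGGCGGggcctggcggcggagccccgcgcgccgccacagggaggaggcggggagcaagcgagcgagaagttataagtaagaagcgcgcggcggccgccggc
The Klf2 stretch held 2 GC boxes and the Klf4 stretch 4, counted on both strands, and 32.7% of 32851 promoters of this length held at least 1. A CACCC element (on both strands) occurred once in Klf2 and not in Klf4, against 52.0% of promoters. The STAT letters TTCNNNGAA, the CCAAT box and TATAAA were in neither window, and 7.02%, 33.8% and 12.4% of promoters held them. GC content was 71.2% in Klf2 and 74.0% in Klf4, with a median of 52.4% over all promoters. These are matches of letters in a short window, and nothing on these arrays measured binding there.

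All 3 spots were well above background in both channels on all 12 arrays and none was saturated. Klf2 gave one of the brightest Cy3 spots, at the 98.9th to 99.5th percentile of gene probes on each array. Its Cy3 intensity, with nothing subtracted, ranged from 21530.6 to 22543.4 in RKPG9, 8438.7 to 11994.0 in HP3, 4018.1 to 6902.5 in HP4 and 8018.0 to 9439.8 in EB5. RKPG9 thus stood above every array of the other lines. Klf4 gave 2077.0 to 2336.3 in RKPG9, 1992.4 to 2483.5 in HP3, 992.2 to 1233.8 in HP4 and 2113.3 to 2665.8 in EB5, with HP4 below every other array. Klf5 lay nearer to background, at 1005.6 to 1029.7 in RKPG9, 777.7 to 919.5 in HP3, 578.9 to 602.2 in HP4 and 739.1 to 881.7 in EB5, over local backgrounds of 395 to 412 in Cy3. Its percentile was 75.8 to 77.6 in HP4, within the 74.7 to 78.8 of EB5. In RKPG9 and HP3 the Klf5 percentile was 84.1 to 84.8 and 80.4 to 82.1. Intensities of different probes do not order the genes.

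**Figure D1:**
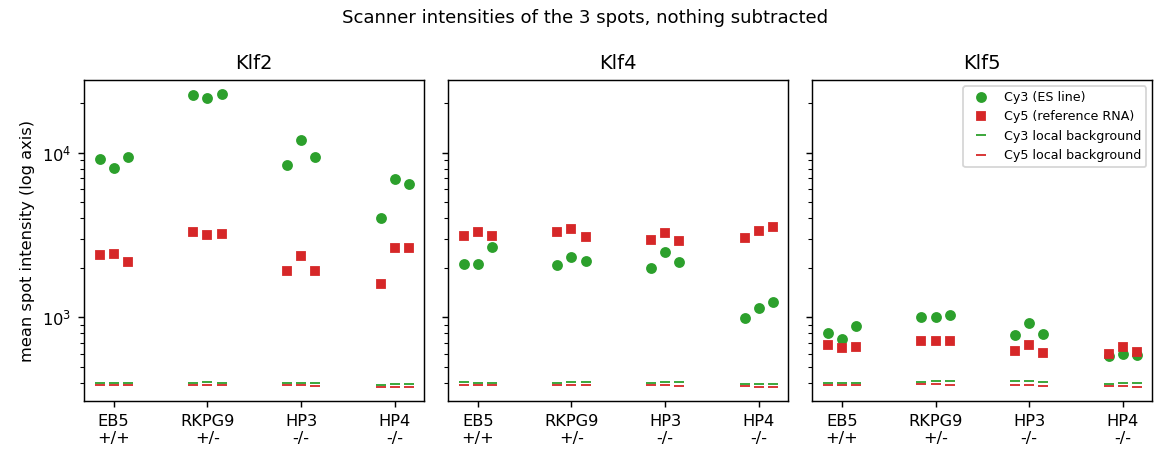
Mean spot intensities of the Klf2, Klf4 and Klf5 probes on each of the 12 arrays, on a log axis and with nothing subtracted, with circles for Cy3 (the ES cell line), squares for Cy5 (the reference RNA) and dashes for the local backgrounds. HP4 lay lowest in Cy3 for all 3 probes, on arrays that were dimmer in Cy3 as a whole. Klf5 on HP4, at 578.9 to 602.2, lay closest to its background.

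Klf4 and Klf5 were both lower in HP4 than in HP3, the other knockout line, by about the same amount, whereas Klf2 did not pass. The log2 ratio of Klf4 was 0.94, 0.91 and 0.91 in HP3 and 0.32, 0.43 and 0.39 in HP4. No HP4 array reached an HP3 array, and the mean fell from 0.92 ± 0.02 to 0.38 ± 0.05 (SD, n = 3 arrays each). The log2 change was -0.54 ± 0.04 (SE), or 1.45-fold, with an adjusted p of 2.2e-05 in limma over all probes.

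Klf5 was at 1.90, 2.02 and 1.95 in HP3 and at 1.42, 1.42 and 1.43 in HP4. The HP4 arrays again lay wholly below, and the change was -0.54 ± 0.04, also 1.45-fold (adjusted p = 2.5e-05 in limma). Klf2 was at 4.00, 3.85 and 3.90 in HP3 and at 4.01, 3.91 and 3.72 in HP4. These overlapped, and the change was -0.04 (95% confidence interval -0.20 to 0.12, adjusted p = 0.72 in limma). Thus 2 of the 3 probes were called, where 28.6% of all probes were called in this comparison and 14.8% were called lower. Klf4 and Klf5 lay far out in that distribution, with 1.05% and 1.09% of probes changed at least as much. Their arrays did not overlap, which held for 42.8% of all probes. Neither passed 2-fold, which 0.0247% of probes did.

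In the reference channel neither of these spots passed. Fitted alone, Cy5 changed by 0.10 for Klf4 (adjusted p = 0.75 in limma) and by -0.03 for Klf5 (adjusted p = 0.98), against -0.52 (adjusted p = 4.0e-04) and -0.34 (adjusted p = 0.010) in Cy3. The calls of Klf4 and Klf5 were kept in all 23 alternatives, with changes of -1.01 to -0.51 for Klf4 and -0.57 to -0.34 for Klf5. Not every alternative could move them. Scaling intensities between arrays (Aquantile) left each ratio as it was, and leaving out an EB5 or RKPG9 array left both changes at -0.54. The sizes also parted in other settings, with -0.53 for Klf4 and -0.42 for Klf5 at a background offset of 0. With processed signals they were -0.53 and -0.43. The Klf2 result depended on the scaling. It was -0.55 (adjusted p = 1.1e-05 in limma) when arrays were centred on the median in place of loess, -0.15 (adjusted p = 0.020) without background subtraction and 0.12 (adjusted p = 0.52) in Cy3 alone. Median centring removes no trend with brightness within an array, and Klf2 is among the brightest spots on the dimmer HP4 arrays. The part of that dimness in any of these changes was not tested.

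**Figure D2:**
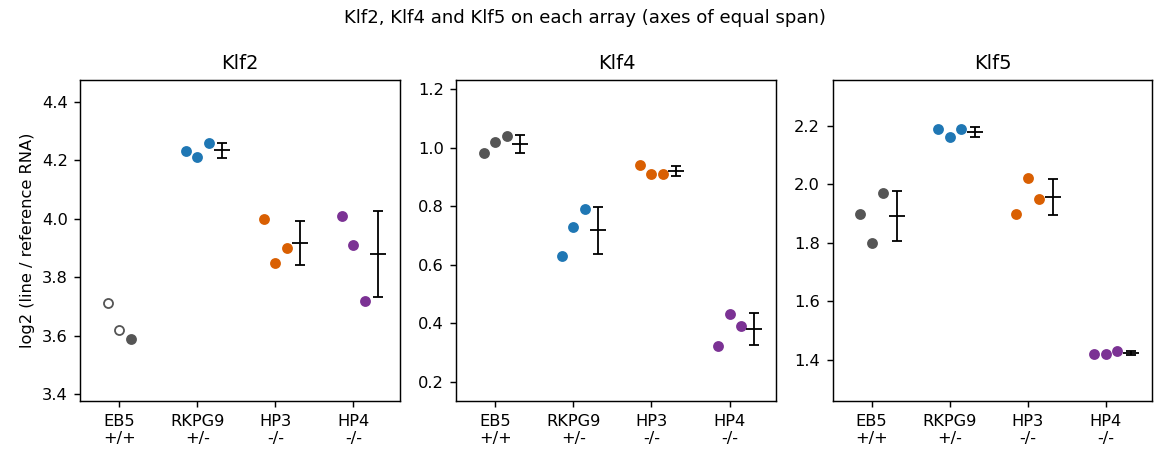
Log2 ratio of ES cell line over reference RNA for Klf2, Klf4 and Klf5 on each array of EB5, RKPG9, HP3 and HP4, with black marks for the mean ± SD of the 3 arrays. Open circles are the 2 EB5 spots of Klf2 that were flagged as not uniform and left out, so Klf2 in EB5 rests on 1 array at 3.59 and has no SD.

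All 3 members differed between HP3 and the heterozygous line RKPG9, with Klf2 and Klf5 lower and Klf4 higher in the knockout line. Klf2, at 4.23, 4.21 and 4.26 in RKPG9, was highest there of all lines and every HP3 array lay below it. The change was -0.32 ± 0.07 (adjusted p = 0.0085 in limma), or 1.25-fold. Klf5 was at 2.19, 2.16 and 2.19 in RKPG9, also the highest of the 4 lines, and fell by 0.22 ± 0.04 (adjusted p = 0.0034 in limma). Klf4 was at 0.63, 0.73 and 0.79 in RKPG9, below each HP3 array, and its change was 0.20 ± 0.04 (adjusted p = 0.0043 in limma), or 1.15-fold. All 3 probes were thus called, where 22.8% of all probes were called, 12.7% higher and 10.1% lower, and the arrays of the 2 lines did not overlap for any of them, as for 39.7% of all probes. The sizes were modest, and between 7.18% (Klf2) and 15.9% (Klf4) of probes changed at least as much. None passed 2-fold, against 0.281% of all probes. The rise of Klf4 no longer passed with median centring (0.10, adjusted p = 0.48 in limma) or in Cy3 alone (0.23, adjusted p = 0.052).

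Against RKPG9 all 3 members were lower in HP4. Klf5 went from 2.18 ± 0.02 to 1.42 (SD under 0.01 in HP4, n = 3 arrays each). It fell by 0.75 ± 0.04, or 1.69-fold (adjusted p = 2.1e-07 in limma), and 1.35% of probes changed at least as much. Klf2 fell by 0.36 ± 0.07 (adjusted p = 0.0028 in limma) and Klf4 by 0.34 ± 0.04 (adjusted p = 7.4e-05). Arrays of HP4 and RKPG9 did not overlap for any of the 3, as for 51.2% of all probes. Here 40.1% of all probes were called, 20.9% higher and 19.2% lower, and none of the 3 passed 2-fold, as 0.38% of probes did. With median centring the changes were -1.04 for Klf2, past 2-fold, -0.91 for Klf4 and -0.80 for Klf5, and in Cy3 alone they were -0.83, -0.30 and -0.62, so which member changed most depended on the scaling. The 3 calls were kept in all 23 alternatives for this comparison.

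Klf2 also differed in the reference channel on the RKPG9 arrays. Cy5 intensity of the Klf2 spot was 3155.8 to 3288.7 in RKPG9, above the 1899.2 to 2370.9 of HP3, the 1599.1 to 2622.9 of HP4 and the 2153.5 to 2426.1 of EB5. In Cy5 alone the change of Klf2 was -0.56 for HP3 and -0.45 for HP4 against RKPG9, with unadjusted p of 0.0074 and 0.021 and adjusted p of 0.38 and 0.21 in limma. In Cy3 alone it was -0.95 and -0.83, so that the ratio carries the smaller remainder. What part the spot itself has in the Klf2 level of RKPG9 was not tested.

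**Figure D3:**
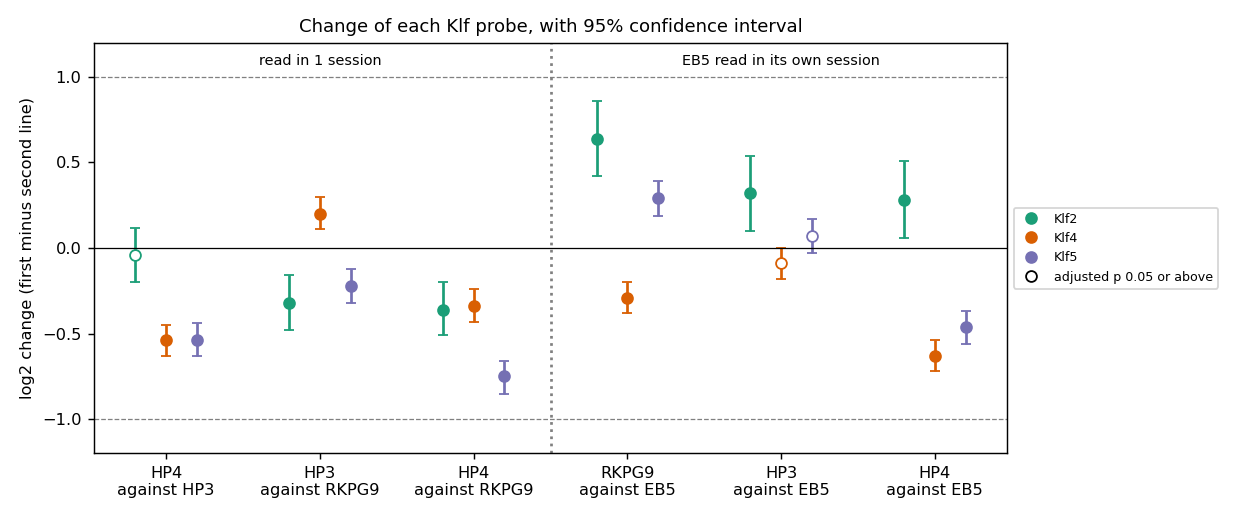
Log2 change of Klf2, Klf4 and Klf5 in the 6 comparisons of lines, with 95% confidence intervals from limma, filled where the adjusted p was under 0.05 and open otherwise, and dashed lines at 2-fold. In the setting shown, Klf4 and Klf5 share a change of -0.54 in HP4 against HP3, and no change reaches 2-fold. The equal size was not kept in every other setting.

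Against EB5 the comparisons address the effect of the Rex1 genotype as the study designed it, with session and line in parallel. Klf4 was at 0.98, 1.02 and 1.04 in EB5, its highest level of the 4 lines. It fell by 0.63 ± 0.04 in HP4, or 1.55-fold (adjusted p = 1.0e-06 in limma), and by 0.29 ± 0.04 in RKPG9 (adjusted p = 2.3e-04). In HP3 its change was -0.09 (95% confidence interval -0.18 to 0.00, adjusted p = 0.14 in limma), although the arrays did not overlap. Cy5 alone changed by 0.21 at this spot in HP4 (adjusted p = 0.011) and Cy3 alone by -0.55 (adjusted p = 3.3e-05). Both calls of Klf4 held in all 23 alternatives, and in HP3 it passed with median centring only (-0.22, adjusted p = 0.0498).

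Klf5 was at 1.90, 1.80 and 1.97 in EB5. It fell by 0.46 ± 0.04 in HP4 (adjusted p = 1.2e-05 in limma) and its change in RKPG9 was 0.29 ± 0.04 (adjusted p = 3.3e-04). In HP3 the arrays overlapped those of EB5, and the change was 0.07 (95% confidence interval -0.03 to 0.17, adjusted p = 0.25 in limma). Reference RNA at this spot moved with the session, by 0.40, 0.38 and 0.54 in Cy5 for HP3, HP4 and RKPG9 against EB5 (adjusted p = 0.0032, 0.0026 and 0.0020 in limma). The limma fit of Cy3 alone gave Klf5 changes of 0.55 for RKPG9 (adjusted p = 1.1e-04), 0.28 for HP3 (adjusted p = 0.013) and -0.06 for HP4 (adjusted p = 0.52). In HP3 it also passed with the processed signals (0.15, adjusted p = 0.011) and in the authors' table (0.15, adjusted p = 0.010), and with median centring the change was -0.09 (adjusted p = 0.20). In RKPG9 its call was lost with median centring (0.13, adjusted p = 0.089). The fall in HP4 against EB5 was thus called in the ratio but did not pass in the ES cell channel.

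Klf2 in EB5 was usable on 1 array, at 3.59. Its spots on the other 2 arrays were flagged as not uniform, in Cy5 on replicate 1 and in Cy3 on replicate 2, and gave 3.71 and 3.62 when kept. With 1 EB5 array the SE and p of Klf2 against EB5 take their spread from the other lines, and the single array is assumed to vary like them. Fitted so, Klf2 was higher than EB5 in RKPG9 by 0.64 ± 0.10, or 1.56-fold (adjusted p = 7.3e-04 in limma). In the reference channel alone this spot changed by 0.70 in RKPG9 (adjusted p = 0.0498 in limma), and in Cy3 alone by 1.33 (adjusted p = 6.2e-05). Klf2 was higher by 0.32 ± 0.10 in HP3 (adjusted p = 0.034) and by 0.28 ± 0.10 in HP4 (adjusted p = 0.041). With the non-uniform spots kept, and so 3 EB5 arrays, the changes were 0.59 in RKPG9 (adjusted p = 3.6e-05), 0.27 in HP3 (adjusted p = 0.0095) and 0.24 in HP4 (adjusted p = 0.014). The call in RKPG9 held in the 22 alternatives that gave a value. Those in the knockout lines held in 15 of 22 for HP3 and 11 of 22 for HP4, and with median centring Klf2 was lower in HP4 than in EB5 (-0.49, adjusted p = 8.7e-05 in limma).

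In all, 1 of 3 probes was called in HP3 against EB5, 3 of 3 in HP4 and 3 of 3 in RKPG9, where 30.7%, 45.0% and 34.4% of all probes were called. Calls were higher at 11.4%, 18.4% and 12.5% of probes and lower at 19.4%, 26.7% and 21.8% in the same order. The arrays did not overlap for 2, 3 and 3 of the 3 members, as for 46.3%, 53.7% and 49.4% of all probes. For Klf2 this rests on 1 EB5 array, with which overlap is less likely than with 3. With the flagged spots kept, Klf2 in EB5 reached 3.71, beside 3.72 on the lowest HP4 array. No member passed 2-fold, which 0.217%, 0.291% and 0.529% of all probes did. Klf4 in HP4 stood furthest out among these, with 1.49% of probes changed at least as much. HP3, HP4 and RKPG9 share the EB5 arrays, so these comparisons are not independent of each other.

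The order of the lines differed for each member. Klf4 fell in the order EB5, HP3, RKPG9 and HP4, and of the neighbours in this order EB5 and HP3 did not differ at the threshold. Klf5 fell in the order RKPG9, HP3, EB5 and HP4, and HP3 and EB5 did not differ at the threshold. For Klf2 the order was RKPG9, HP3, HP4 and EB5, in which HP3 and HP4 did not differ at the threshold. HP4 was the lowest line for Klf4 and Klf5 and RKPG9 the highest for Klf2 and Klf5.

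**Figure D4:**
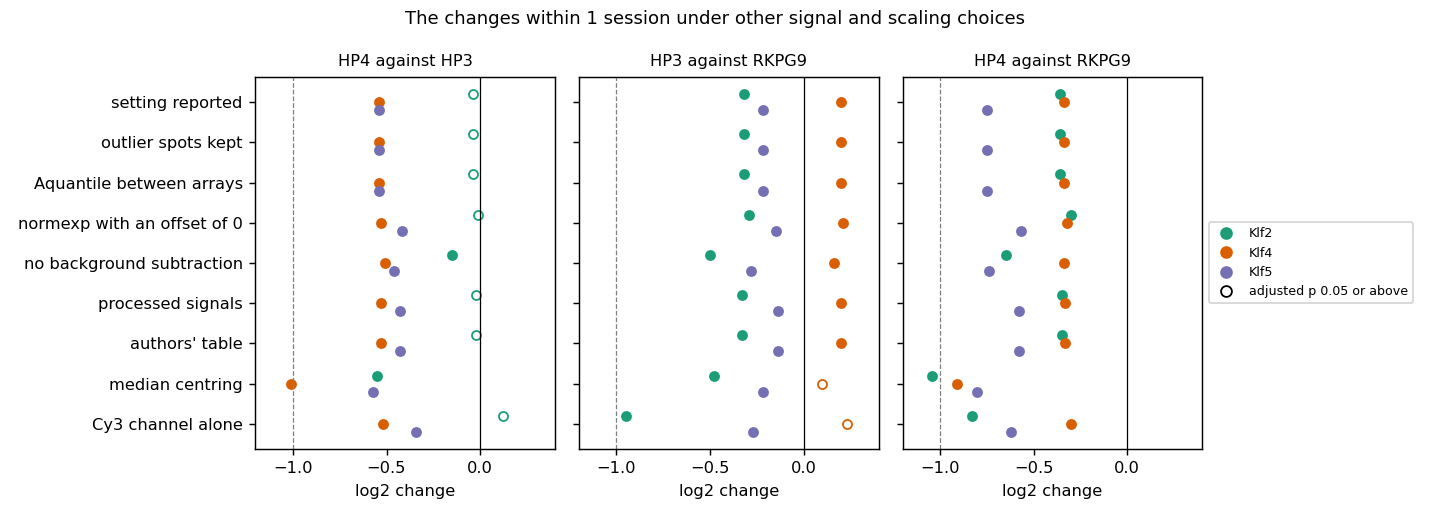
Log2 changes of Klf2, Klf4 and Klf5 in the 3 comparisons within 1 session under 9 choices of signal and scaling, filled where the adjusted p was under 0.05, with a dashed line at 2-fold lower. The Aquantile choice leaves each ratio unchanged and so repeats the setting reported. Klf4 and Klf5 stay filled below 0 in HP4 against both other lines, while Klf2 in HP4 against HP3 ranges from -0.55 to 0.12 and Klf4 in HP3 against RKPG9 is open with median centring and in Cy3 alone.

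The remaining Klf and Sp genes were taken as a list, of which 11 of 22 were on the array, all well above background on all 12 arrays (for a gene with several probes the brightest was used). Of all probes, 13.8% were called higher and 14.8% lower in HP4 against HP3. None of the 11 was higher there and 3 were lower, with a median change of -0.06 beside 0.00 over all probes. These were Klf9 (-0.27, adjusted p = 9.9e-04 in limma), Sp2 (-0.24, adjusted p = 0.0026) and Sp1 (-0.15, adjusted p = 0.0049). Klf9, a GC-box binding factor known from hormone response, was at -0.29 on its second probe as well, while Sp1 was at 0.02 there (adjusted p = 0.75). The count of lower genes ranged from 3 to 7 under other scalings, and Sp2 no longer passed with median centring or in Cy3 alone.

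Against RKPG9 the family moved in both directions in each knockout line. In HP3 4 rose and 3 fell of the 11, and in HP4 2 rose and 3 fell, with medians of 0.01 and -0.10 beside 0.00 and 0.01 over all probes. The shares of all probes called higher and lower were 12.7% and 10.1% in HP3 and 20.9% and 19.2% in HP4. Klf7, a factor of neural and adipose tissue, rose by 0.54 in HP3 (adjusted p = 2.7e-07 in limma) and by 0.62 in HP4 (adjusted p = 6.9e-08), and its other 3 probes rose as well, by 0.30 to 0.48. Klf6, a widely expressed growth regulator, fell by 0.44 in each (adjusted p = 5.9e-05 and 4.1e-05). Klf3, a repressor that recruits CtBP, fell by 0.29 and 0.38, calls that were lost in Cy3 alone. Klf6 was at -0.38 in both knockout lines and at 0.03 in EB5 and 0.06 in RKPG9.

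**Figure D5:**
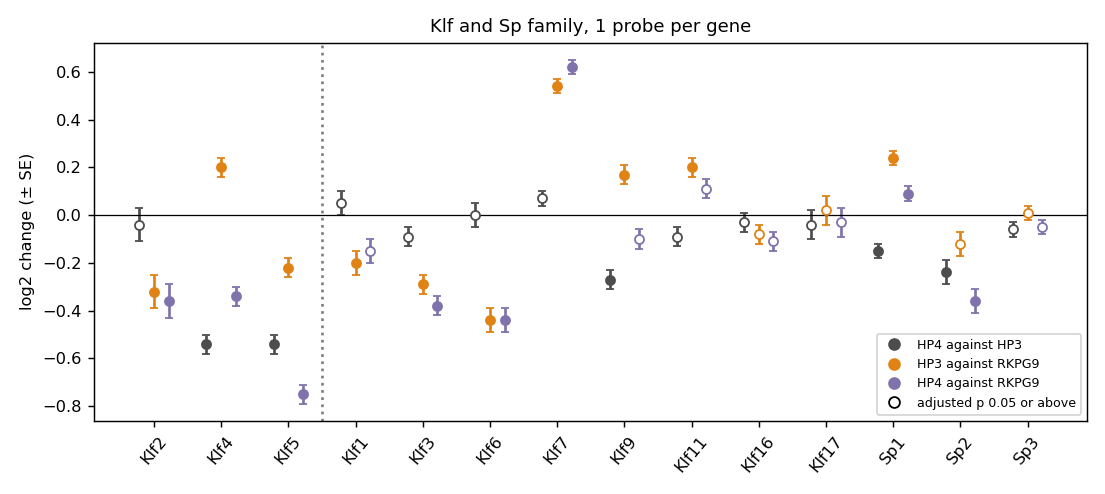
Log2 change ± SE of Klf2, Klf4, Klf5 and the 11 other Klf and Sp genes on the array in the 3 comparisons within 1 session, with 1 probe per gene and open symbols where the adjusted p was 0.05 or above. Klf4 and Klf5 are the lowest of all in HP4 against HP3, at -0.54, and Klf7 is the highest in both comparisons with RKPG9.

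Genes of LIF and STAT3 signalling, the input that Klf4 and Klf5 are known to read, gave no direction that held under all scalings. Of 26 measured, 8 were higher and 3 lower in HP4 against HP3, with a median of 0.06, where 13.8% of all probes were called higher and 14.8% lower. Median centring turned the counts to 8 higher and 13 lower (1 to 12 higher and 1 to 13 lower over the scalings). Stat3 changed by 0.05 (adjusted p = 0.25 in limma) there, and Il6st (gp130), the partner of the LIF receptor, by 0.03 (adjusted p = 0.74). The kinase Jak1 changed by -0.05 (adjusted p = 0.55) and the feedback inhibitor Socs3, a STAT3 target, by 0.03 (adjusted p = 0.53). None of them passed. These 4 were chosen after their values were seen, so they do not show whether the input as a whole changed. Called by size were Ier3, an early response gene, at 0.59 (adjusted p = 0.0011), and Socs2, a cytokine signalling inhibitor, at -0.37 (adjusted p = 4.5e-04, on 9 usable arrays), with Socs2 lower on both other probes too. Osmr and Jak2 also passed, but no change is given for them, since Osmr was not well above background in Cy3 on any array, and Jak2 on none of HP4 and 1 of HP3.

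Against RKPG9, 4 of these 26 rose and 5 fell in HP3, and 10 rose and 6 fell in HP4. Among all probes 12.7% rose and 10.1% fell in HP3, and 20.9% rose and 19.2% fell in HP4. Pim2, a kinase of the PIM family induced by STAT signalling, had the largest change and passed 2-fold, at 1.03 in HP3 (adjusted p = 5.1e-08 in limma) and 1.09 in HP4 (adjusted p = 2.4e-08). Gab1, an adaptor that links gp130 to ERK and PI3K, fell by 0.40 in HP3 (adjusted p = 1.1e-05) and by 0.30 at each of 2 other probes. Lifr, the LIF receptor, was well above background in all 3 RKPG9 arrays but in 1 of HP3 and none of HP4, where its level is only bounded.

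Genes of the naive ES cell transcription network, in which these factors act, were more often lower than higher in HP4 against HP3 and RKPG9, but not against EB5. In HP4 against HP3 15 were lower and 1 was higher of 23 measured genes, where 14.8% of all probes were called lower and 13.8% higher. The median was -0.27 beside 0.00 over all probes. Called with the largest changes were Dppa3 (-0.56, adjusted p = 0.013 in limma), a maternal factor, Esrrb (-0.55, adjusted p = 0.0014), an orphan nuclear receptor, Fbxo15 (-0.51, adjusted p = 0.011), an F-box gene used as an ES cell reporter, and Nr5a2 (-0.42, adjusted p = 0.0050), a nuclear receptor. Of these, Esrrb was called under every scaling tried at this probe, although its second probe was at 0.15 (adjusted p = 0.30). Nr5a2 was at -0.48 at its second probe. The number lower ranged from 4 to 19 and the number higher from 0 to 1 across the scalings. The mean log2 ratio of the 20 genes usable on every array was 2.22 to 2.33 on HP4 arrays and 2.44 to 2.55 on HP3 arrays. This list of high ratios thus lay nearer to the reference in HP4, as did the mesenchymal list of low ratios below. The HP4 arrays were dimmer in Cy3, and the part of that in these counts was not tested.

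Against RKPG9 the same list had 10 genes lower and 5 higher in HP4 (median -0.20), and 2 lower and 7 higher in HP3 (median 0.04). Among all probes 19.2% were called lower and 20.9% higher in HP4, and 10.1% and 12.7% in HP3. Sall1, a zinc finger factor, fell by 0.93 in HP4 (adjusted p = 1.2e-06 in limma) and by 0.63 in HP3 (adjusted p = 3.8e-05). Tcl1, a coactivator of Akt, fell by 0.75 (adjusted p = 3.1e-04) and by 0.41 (adjusted p = 0.020), and in HP4 Dppa3 fell by 0.85 (adjusted p = 5.6e-04) and Esrrb by 0.67 (adjusted p = 1.5e-04), with 0.10 at the second Esrrb probe (adjusted p = 0.47). In HP3 Rest, a repressor of neural genes, rose by 0.34 (adjusted p = 4.5e-05) and Dppa2 by 0.31 (adjusted p = 0.0018). With median centring no gene of the list was higher in HP4 and 1 was in HP3. Against EB5, 6 were higher and 4 lower in HP4 (median -0.05), with 1 to 9 higher and 2 to 16 lower under other scalings, and 10 were higher and 1 lower in HP3 (median 0.23). Among all probes 18.4% were called higher and 26.7% lower in HP4 against EB5, and 11.4% and 19.4% in HP3.

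Of 25 measured genes of FGF and ERK signalling, which opposes the naive state, 5 were higher and 5 lower in HP4 against HP3 (median -0.01), and other scalings gave 1 to 5 higher and 2 to 16 lower. In that comparison 13.8% of all probes were called higher and 14.8% lower. Dusp4, a phosphatase that shuts off ERK, fell by 0.39 (adjusted p = 7.7e-05 in limma), also under every scaling, while Egr1, an immediate early target of ERK, changed by 0.20 (adjusted p = 0.047) and turned to -0.32 with median centring. Against RKPG9 Egr1 rose by 0.90 in HP3 (adjusted p = 1.9e-06) and by 1.10 in HP4 (adjusted p = 2.9e-07), past 2-fold in HP4, beside 6 higher and 3 lower of the list in HP3 and 10 and 5 in HP4 (3 to 10 and 3 to 14 under other scalings). The shares of all probes were 12.7% higher and 10.1% lower in HP3 and 20.9% and 19.2% in HP4. In PI3K and Akt signalling, an input that acts beside STAT3, 4 of 17 rose and 6 fell in HP4 against HP3, with 1 to 4 and 3 to 9 under other scalings. Pik3r1, a regulatory subunit, was at 0.71 (adjusted p = 0.0027) but at -0.08 on its second probe, and the catalytic subunit Pik3cb fell by 0.35 (adjusted p = 8.3e-05).

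Of 12 measured genes for turnover of KLF proteins and their co-factors, 1 was higher and 3 were lower in HP4 against HP3 (median -0.05), and other scalings gave 0 to 2 higher and 1 to 9 lower. In that comparison 13.8% of all probes were called higher and 14.8% lower. The acetyltransferase Kat2b fell by 0.38 (adjusted p = 6.5e-05 in limma), though its second probe was at 0.03, and Vhl, a ubiquitin ligase subunit known to act on KLF4 protein, rose by 0.21 (adjusted p = 8.8e-04). Genes of the primed epiblast, the state that follows the naive one, were compared with RKPG9 as well, and 5 of 10 were higher and 1 lower in HP3 and 6 and 1 in HP4. Among all probes 12.7% were called higher and 10.1% lower in HP3 against RKPG9, and 20.9% and 19.2% in HP4. Dnmt3b, a de novo DNA methyltransferase, rose by 1.09 in HP3 (adjusted p = 7.8e-06) and by 1.11 in HP4 (adjusted p = 5.0e-06), with 1.12 and 1.13 on its second probe, Otx2, a homeobox factor, by 0.70 and 0.37, and Pou3f1 (Oct6) by 0.52 and 0.61. Cd24a, a surface antigen, fell by 0.64 and 0.93. Between HP4 and HP3, where Klf4 and Klf5 differed, 0 of the 10 were higher and 2 were lower at an adjusted p under 0.05 in limma, namely Otx2 (-0.34) and Cd24a (-0.30), and other scalings gave 0 to 2 higher and 1 to 6 lower.

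Markers of other cell types were also counted in HP4 against HP3, where 13.8% of all probes were called higher and 14.8% lower. Of 19 mesenchymal and fibroblast markers 12 were higher and 1 was lower (median 0.28), and the mean log2 ratio of those usable on every array was -2.27 to -2.18 on HP4 arrays and -2.56 to -2.39 on HP3 arrays. The calls were Cav1 (0.45), Snai2 (0.39), Vim (0.38) and Dcn (0.38) by size, of which Vim turned to -0.17 with median centring and Dcn to -0.28 in Cy3 alone, and the count higher ranged from 1 to 13. Cav1 did not pass at its other 2 probes (0.13 and 0.23). Of 16 extraembryonic endoderm markers 5 were higher and 1 lower, of 14 trophoblast markers 4 and 2, and of 11 primitive streak and mesoderm markers 1 and 0. Other scalings gave 2 to 8 and 1 to 2, 3 to 6 and 1 to 5, and 0 to 5 and 0 to 2 in the same order. Among the trophoblast markers Gata3 rose by 0.72 (adjusted p = 4.2e-05 in limma) and Tfap2c, which ES cells also express, fell by 0.95 (adjusted p = 2.2e-05). Tpbpa and Lhx1 were not well above background in Cy3 on any array. The part of the dimmer Cy3 signal of the HP4 arrays in these counts was not tested. The part of these cells in the levels of Klf4 and Klf5 was not tested either. In bulk RNA fewer cells of a type and less RNA per cell cannot be told apart.

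The genes whose pattern lay closest to each member were found by the root mean square difference of log2 ratios over the arrays, after each probe's own mean was taken off, among probes with a gene symbol that were usable and well above background in both channels on all 12 arrays. For Klf5, over 12 arrays and 6720 candidates, these were Gcnt2, a glycosyltransferase (0.064), Lig1, a DNA ligase (0.078), and Tfap2c (0.086), against a median of 0.294 over all candidates and 0.278 for Klf5 about its own mean. Mean log2 ratios of Gcnt2 ran from 2.25 (RKPG9) through 2.02 (HP3) and 1.92 (EB5) to 1.40 (HP4), beside 2.18, 1.96, 1.89 and 1.42 for Klf5. For Klf4 they were Diaph2, a formin (0.066), Sars, a seryl-tRNA synthetase (0.071), and Ndufs4, a subunit of respiratory complex I (0.072), against a median of 0.255. For Klf2, over the 10 usable arrays, the genes given are Apoe, an apolipoprotein (0.076), and Gab1 (0.079), against a median of 0.240. Apoe had means of 4.18 (RKPG9), 3.85 (HP3), 3.74 (HP4) and 3.54 (EB5). These are descriptions of likeness over arrays that share one reference RNA, with no test.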

How the data were processed

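RNA of 4 mouse ES cell lines, 3 arrays each, was hybridised against a universal mouse reference RNA on 2-colour Agilent arrays with 20280 gene probes (91 further spots without a gene, named as retired, were left out). The deposited intensity values are the mean signal and local median background of each spot, read by the authors with Agilent Feature Extraction 7.5.1, together with processed signals and flags. The deposited value table is on a log10 scale. In each column 91.0% to 91.2% of its values equalled the scanner's log10 ratio of line over reference, turned so that the line is on top, plus a constant per probe (tolerance 0.01), its column medians were 2.87 to 2.88, and how that constant was set is not known here.

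Background was removed from the mean signals by normexp (offset 50), followed by loess within arrays (control spots weight 0) in limma 3.58.1 under R 4.3.3. The 1824 spots flagged as outliers were left out, and log2 ratios of line over reference were fitted over 12 arrays. Adjusted p-values are by Benjamini-Hochberg over all probes of a comparison, called below 0.05, with 2-fold marked separately. The study required both together, a false discovery rate under 0.05 and a difference over 2-fold. The fit was tested on simulated data. Of the probes, 8452 matched a current gene symbol through RefSeq (GRCm38.p6), 4126 of them from an older name. The brightest probe stood for each gene of a list. From each list up to 4 members with the greatest called change were named, and 3 genes most alike to each member, except that some items are not reported here. Alternatives were other signals, background corrections, scalings, filters and fits, the authors' table and leaving out each array. The fit of the reference channel was added after values were seen. Members and lists were chosen with earlier results of these data known. Precision is limited by the number of arrays.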

Additional observations from a re-analysis of the deposited data

Results flagged for a closer look

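Klf4 and Klf5 differed between the 2 knockout lines, which are both labelled Rex1-/-. The effect in HP4 minus the effect in HP3 against any common line was -0.54 for Klf4 (95% confidence interval -0.63 to -0.45, adjusted p = 2.2e-05 in limma). It was -0.54 for Klf5 as well (95% confidence interval -0.63 to -0.44, adjusted p = 2.5e-05 in limma). The equal size depended on the setting, and in Cy3 alone the values were -0.52 for Klf4 and -0.34 for Klf5. Every HP4 array lay below every HP3 array for both, and the arrays of these lines did not overlap for 42.8% of all probes. With 3 arrays a line, single arrays that stand apart were not looked for.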

How the results depend on the processing

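Of 411 alternative values for the 18 changes of the members, 379 kept their direction and side of the threshold, 21 no longer passed, 6 newly passed and 5 reversed. These alternatives are not separate checks. Aquantile scaling leaves every ratio unchanged, and leaving out an array of a line not compared leaves the size of a change as it was. Counts of calls kept, here and above, include such alternatives. Median centring reversed Klf5 in HP3 against EB5 (-0.09) and Klf2 in HP4 against EB5 (-0.49), and Cy3 alone reversed Klf2 in HP4 against HP3 (0.12), the cause of which was not tested. The number of members called in HP3 against EB5 was 0 with an offset of 0 and 2 in the authors' table, against 1. The called member was Klf2 as reported, but Klf5 with processed signals (adjusted p = 0.011 in limma) and in Cy3 alone (adjusted p = 0.013), and Klf4 with median centring (adjusted p = 0.0498). Leaving out each array in turn gave 0 to 1 there, 2 to 3 in HP4 against EB5, and 3, 3, 3 and 2 throughout in RKPG9 against EB5, HP3 and HP4 against RKPG9, and HP4 against HP3. The call of Klf2 in HP3 against EB5 was lost without HP3 replicate 1 (0.28, adjusted p = 0.080 in limma) and without HP3 replicate 3 (0.33, adjusted p = 0.060). That in HP4 against EB5 was lost without each RKPG9 replicate, HP3 replicate 3, or HP4 replicate 1 or 2 (0.22 to 0.28, adjusted p of 0.0537 to 0.085). Without EB5 replicate 3 Klf2 had no EB5 value. Klf2 in HP4 against HP3 ranged from -0.11 to 0.04, above 0 without HP4 replicate 3 and 0.00 without HP3 replicate 1.

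Replicate numbers were shared by the lines, but correlations of same-numbered arrays were -0.18 to 0.19 over 18 pairs, so they were not taken as pairs. With the replicate block, 0 members were called in HP3 against EB5 and 2 in HP4 against EB5, since Klf2 no longer passed (adjusted p = 0.073 and 0.088 in limma), and no other call of a member changed. Of the 12 arrays, 3 correlated best with their own number. Each member had 1 probe, so no second probe could check it. No Klf5 promoter and no protein sequence was used here.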
